A study of Mus musculus with 10 samples.

Results

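The 31 genes described here control CDK1, the kinase that drives the oocyte out of prophase arrest, and were taken by symbol from a table of 24453 gene symbols. They comprise CDK1 with its cyclins and CKS subunits (8 genes), the kinases that inhibit CDK1 (3), the CDC25 and CDC14 phosphatases (5), the MOS-MAPK module (3), PLK1, Aurora A and their link BORA (3), the Greatwall module (3), and the anaphase-promoting complex, or APC/C, with its activators and inhibitors (6). All 31 were found and 30, with an average level of 0.5 RPKM or more across the 10 libraries, were tested. The symbols were listed by function, with earlier results of these data known.

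Germinal vesicle (GV) oocytes, the full-grown oocytes still arrested in prophase of meiosis I, were denuded of their surrounding cells and pooled, 16 oocytes of 1 C57Bl/6J mouse per library. The mutant group was Setdb1 F/-; ZP3-cre, with 1 floxed and 1 deleted allele of Setdb1 and a Cre transgene driven by ZP3 (4 libraries). The controls were Setdb1 F/+; ZP3-cre, with 1 floxed and 1 wild-type allele and the same transgene (4 libraries), and Setdb1 F/-, with the alleles of the mutant and no Cre (2 libraries). All 10 mice thus carried at least 1 floxed allele. The ages of the mice are not given in the labels. Zp3 is transcribed in growing oocytes, so the floxed allele is lost during growth and not before. Setdb1 encodes a histone H3 lysine 9 methyltransferase, and the series concerns its requirement in meiosis and in early mitosis. Oocytes were kept in milrinone, which inhibits the phosphodiesterase that would lower cAMP, so these libraries describe the transcripts in store before meiosis resumes.

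In the arrested oocyte CDK1 and cyclin B are held inactive in several ways. WEE and MYT1 kinases phosphorylate CDK1, and APC/C with its activator FZR1 (CDH1) marks cyclin B for destruction. When cAMP falls, CDC25 phosphatases remove the inhibitory phosphates, cyclin B builds up, Greatwall restrains the opposing phosphatase PP2A, and the nuclear envelope (germinal vesicle) breaks down. Much of this control acts on proteins and on translation of stored mRNA, which RNA levels do not measure. In pooled oocytes, fewer cells of a kind and less RNA per cell cannot be told apart.

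Setdb1 was read at 4.06, 2.55, 3.32 and 1.31 RPKM in the mutants, against 25.1 to 52.5 RPKM in F/+; ZP3-cre and 19.9 and 26.3 RPKM in F/-. The mutant mean was 9.47% of the control mean, and the difference on the log2(RPKM + 0.5) scale was -3.20 (exact two-sided permutation test, p = 0.0048, the smallest that 210 splits can give). Low-value spacing put the libraries at 45.9e6 to 72.7e6 reads. All 12 oocyte markers were detected, with a summed level of 6488 to 6576 RPKM in mutants and 6365 to 8425 RPKM in controls. Granulosa and cumulus markers summed to 21.5 to 32.3 RPKM in mutants and 20.4 to 28.6 RPKM in controls, with 9 of 15 below 0.5 RPKM on average and Ptx3 and Lhcgr at 0 everywhere. The highest of them were Nr5a2, at 8.04 to 18.4 RPKM over all libraries, and Cyp19a1, at 3.78 to 10.9 RPKM. Theca and stroma markers summed to 0.867 to 3.91 RPKM in mutants and 1.13 to 3.93 RPKM in controls, with 8 of 9 below 0.5 RPKM and Cyp17a1 at 0. Blood and endothelial markers summed to 22.0 to 42.7 RPKM in mutants and 29.9 to 46.8 RPKM in controls, with 4 of 9 below 0.5 RPKM and both haemoglobin genes at 0. Pecam1 (7.14 to 27.1 RPKM) and C1qb (10.8 to 19.9 RPKM) were read in every library. Cd68 was at 7.99 and 7.165 RPKM in mutants 1 and 3, against 0.042 to 3.24 RPKM in the other libraries. Of the somatic markers, 6 of granulosa and cumulus, 1 of theca and stroma and 5 of blood and endothelium were tested. None of these passed the adjusted threshold, and the others were too low to test. Of the oocyte markers 1 passed, Nobox, at 274 ± 25.5 RPKM in mutants and 205 ± 21.3 RPKM in controls (SD, n = 4 and 6; adjusted p 0.0227 in limma). The call for Nobox was lost in 6 of 21 alternatives, with adjusted p from 0.00476 to 0.124 over all of them. Nobox was not typical of its list. Its change was 0.42 on the log2 scale, whereas the median change of the 12 oocyte markers was -0.148. The first F/- library was the shallowest and the second the deepest of all. Mutant 4 stood apart for Ccnb2, described with the cyclins. It was also the lowest library for Pkmyt1, whose mutant values were uneven throughout, and the highest for a second row of Ensa.

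Promoters were examined because many cell cycle genes share 2 short elements, the CCAAT box and the cell cycle genes homology region (TTTGAA). RefSeq promoters on GRCm38.p6, from 250 bases before to 50 after the start, were matched for 23 of the 31 genes, 27 promoters in all. TTTGAA on either strand was present in 9 of the 27, against 17.9% of 32851 promoters of the same length. CCAAT on either strand was present in 20 of the 27, against 37.4% of all promoters, and both were present in 7, against 7.0% of all. The 150 bases before the start are shown for Cdk1, Cdc20, Ccnb1 and Ccnb2. In this stretch Cdk1 and Cdc20 hold both elements, and Ccnb1 and Ccnb2 hold CCAAT alone. In the longer window used for the counts, Ccnb2 also holds TTTGAA, before and after this stretch. It is thus among the promoters with both elements, and Ccnb1 is not. Each stretch shown is on the minus strand of GRCm38.p6. It is written 5′ to 3′ in gene direction, with CCAAT or ATTGG and TTTGAA in capitals. Cdk1 is at chr10:69352913-69353062, Ccnb1 at chr13:100786487-100786636, Ccnb2 at chr9:70421555-70421704 and Cdc20 at chr4:118437344-118437493.
Cdk1: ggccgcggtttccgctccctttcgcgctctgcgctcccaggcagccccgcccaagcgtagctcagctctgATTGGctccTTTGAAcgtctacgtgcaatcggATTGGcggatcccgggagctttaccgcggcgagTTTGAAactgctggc
Ccnb1: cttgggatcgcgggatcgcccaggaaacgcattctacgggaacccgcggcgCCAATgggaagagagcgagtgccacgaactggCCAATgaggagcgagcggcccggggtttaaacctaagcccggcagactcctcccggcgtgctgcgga
Ccnb2: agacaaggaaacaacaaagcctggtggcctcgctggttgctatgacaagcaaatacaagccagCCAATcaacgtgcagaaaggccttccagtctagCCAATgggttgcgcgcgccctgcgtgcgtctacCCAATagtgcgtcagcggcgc
Cdc20: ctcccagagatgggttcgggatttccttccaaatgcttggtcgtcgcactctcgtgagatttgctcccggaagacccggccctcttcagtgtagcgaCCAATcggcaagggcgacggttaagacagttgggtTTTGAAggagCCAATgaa
The 4 genes with these promoters had changes of -0.26, -0.27, 0.62 and 0.33 on the log2 scale in mutants against all controls, and none passed the threshold. The letters describe the promoters and say nothing of binding in oocytes.

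In mutant GV oocytes no transcript of this set changed past the threshold. Of the 30 tested genes 0 passed an adjusted p of 0.05 in limma's model of mutant against all controls, in which 5.33% of 11338 tested genes did (352 higher and 252 lower). At an unadjusted p of 0.05 there were 2 of 30, Wee1 higher and Cdc14a lower, against 19.8% of all genes. The same 2 genes were the only ones whose 4 mutant libraries did not overlap the 6 controls, against 8.18% of all genes. Of the 30 changes, 16 were positive and 14 negative, with a median of 0.02 on the log2 scale against 0.03 over all genes. The median size of a change regardless of sign was 0.16 for the 30 and 0.27 for all genes. Between the 2 control genotypes these sizes were 0.13 and 0.30, so the gap was not particular to mutants. The 30 also varied less within groups. Their median SD on the log2 scale was 0.225 in mutants, 0.143 in F/+; ZP3-cre and 0.254 in F/-, against 0.388, 0.191 and 0.385 for all genes. The levels covered a wide span in every group, with a mean over all libraries that placed Wee2 at rank 117 and Cdc14a at rank 8548 of the 11338 tested genes.

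**Figure D1:**
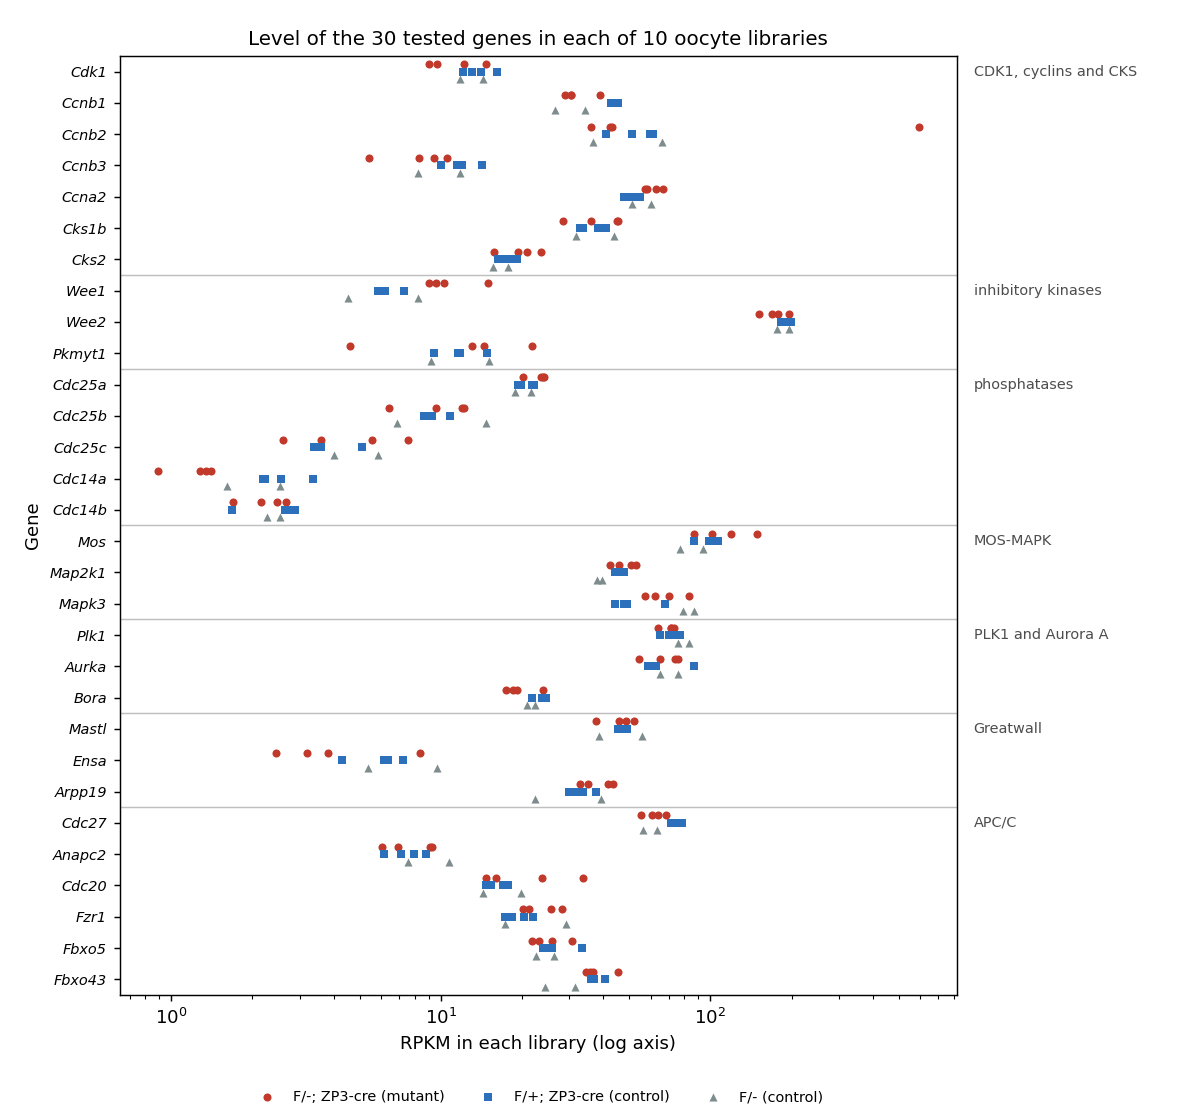
Level of each of the 30 tested genes (RPKM on a log axis, 1 row per gene, grouped by role) in the 4 F/-; ZP3-cre mutant, 4 F/+; ZP3-cre and 2 F/- libraries, 1 point per library. The points of a gene lie close together for most genes, while Ccnb2 has 1 mutant point at 593 RPKM, and Cdc14a at 0.89 to 3.35 RPKM and Wee2 at 151 to 200 RPKM lie near the ends of the range.

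**Figure D2:**
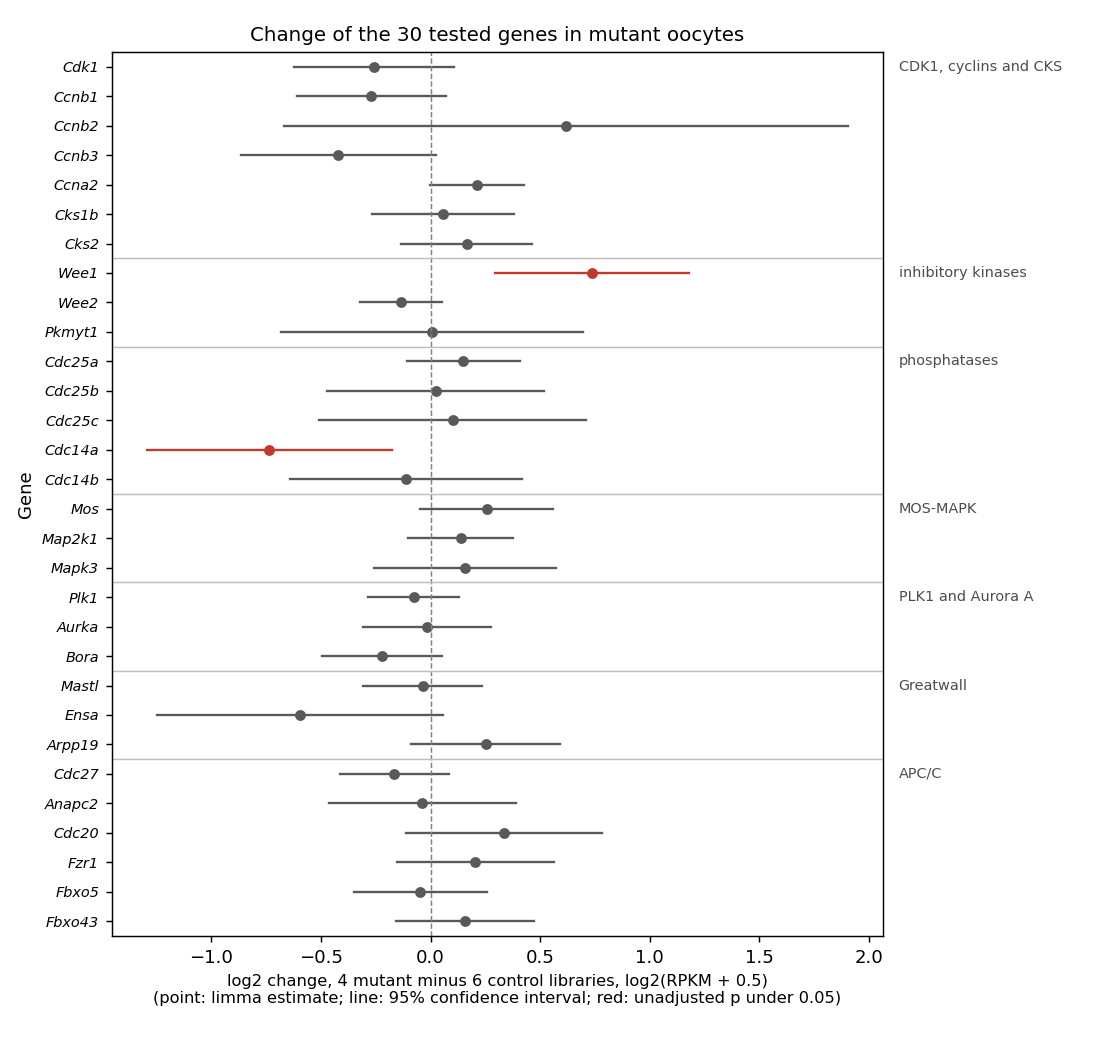
Change in mutants against all 6 controls for the 30 tested genes (difference of log2(RPKM + 0.5), point, with its 95% confidence interval, bar), grouped by role. Only the intervals of Wee1 (0.29 to 1.18) and Cdc14a (-1.29 to -0.18) exclude 0, and that of Ccnb2 is the widest, from -0.67 to 1.91.

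CDK1 itself is the catalytic kinase, and its change was not called. Cdk1 averaged 11.4 ± 2.59 RPKM in mutants and 13.6 ± 1.63 RPKM in controls (SD, n = 4 and 6), a change of -0.26 with an adjusted p of 0.433 (limma). The mutant libraries ran from 9.07 to 14.8 RPKM and the controls from 11.8 to 16.2 RPKM, and the groups overlapped. The CKS subunits, small proteins that bind CDK and help it reach multiply phosphorylated substrates, had changes of 0.06 for Cks1b and 0.16 for Cks2. Cks2 shares 240 of its 692 transcript bases at 98.3% identity or more with 3 processed pseudogenes (Gm15452, Gm19945 and Gm12891), so its reads could be split among them.

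Ccnb1 encodes cyclin B1, the main partner of CDK1 at entry into meiosis. Its level was 38.8, 30.3, 28.8 and 30.3 RPKM in mutants 1 to 4, against 42.9, 45.5, 42.8 and 42.6 RPKM in F/+; ZP3-cre and 34.2 and 26.6 RPKM in F/-. All 4 mutants were below all 4 F/+; ZP3-cre libraries and overlapped the F/- pair, which lay near the mutants. The change against F/+; ZP3-cre was -0.44 with an SE of 0.13 and an adjusted p of 0.074 (limma), and against all controls it was -0.27 with an adjusted p of 0.377. Over 1287 bases of the 2489 of its transcript Ccnb1 is 99.2% identical to the processed pseudogene Ccnb1-ps, and over 1294 bases it is 98.1% identical to Gm12856. Neither has a row in the table, and the sources used here do not say how such reads were counted. Ccnb1 was described in full after its values were seen.

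Ccnb2, cyclin B2, which can also partner CDK1 in the oocyte, gave the highest value of the set. It was read at 42.3, 43.2, 36.1 and 593 RPKM in mutants 1 to 4, against 61.1, 51.3, 59.9 and 41.1 RPKM in F/+; ZP3-cre and 66.0 and 36.6 RPKM in F/-. Mutant 4 was far above every other library, and the other 3 mutants lay within or just below the span of the controls. In mutant 4 Ccnb2 ranked 16 among all genes of that library, whereas its rank in the other libraries was between 593 and 1314. It was the only gene in mutant 4 with at least 50 RPKM and over 5 times its level in every other library. No gene met this in mutants 1 to 3 or in F/+; ZP3-cre, and 2 did in F/- replicate 2 (Pagr1a and Ptprf). The limits of 50 RPKM and 5 times were set with the value of Ccnb2 in mutant 4 known. Ccnb2 was therefore bound to meet them. The mean of Ccnb2 was the highest of its role only through that library. The neighbours of Ccnb2 on chromosome 9 were not raised with it. Rnf111, 3877 bases away, was at 30.7 RPKM in mutant 4 and 25.9 to 41.9 RPKM in the other mutants, and Myo1e, 7926 bases away, was at 6.88 RPKM in mutant 4 and 3.93 to 7.50 RPKM in the others. The change of Ccnb2 against all controls was 0.62 with an SE of 0.60 and an adjusted p of 0.619 (limma). Without mutant 4 it was -0.35 with an adjusted p of 0.339.

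The other cyclins showed no called change. Ccna2, cyclin A2, better known for its part in S phase and mitotic entry, was at 57.3 to 66.4 RPKM in mutants, against 47.9 to 54.6 RPKM in F/+; ZP3-cre and 51.1 and 60.0 RPKM in F/-. The mutants stood above the F/+; ZP3-cre libraries, with a change of 0.25 and an adjusted p of 0.207, and the F/- pair overlapped them. Ccna2 exceeded Ccnb1 in all 10 libraries, by 1.62 to 2.19 times in mutants and 1.05 to 1.92 times in controls. Exosc9 overlaps its exons on the opposite strand over 431 bases, and the kit does not mark strand; Exosc9 was at 10.6 to 12.9 RPKM in mutants and 7.05 to 14.1 RPKM in controls. Ccnb3, cyclin B3, needed in mouse oocytes for the step to anaphase I, averaged 8.43 ± 2.22 RPKM in mutants and 11.3 ± 2.01 RPKM in controls (SD, n = 4 and 6; change -0.42, adjusted p 0.284 in limma). Ccna1, the cyclin A of male germ cells, was listed at 0 in 9 libraries and at 0.011 RPKM in mutant 4, and was not tested.

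**Figure D3:**
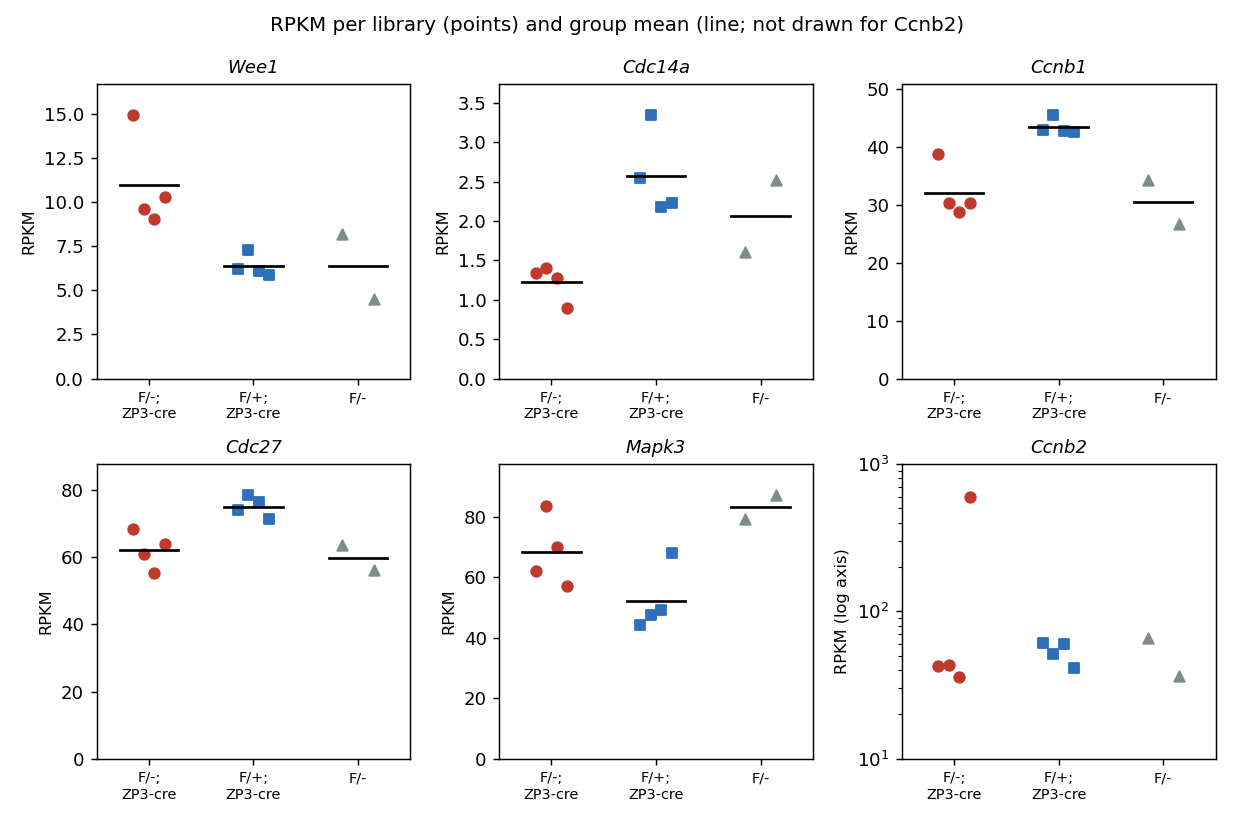
Level (RPKM, linear axes from 0, log axis for Ccnb2) of 6 genes in each library (points) with the group mean (line, not drawn for Ccnb2), for F/-; ZP3-cre, F/+; ZP3-cre and F/-. All mutants lie above all controls for Wee1 and below them for Cdc14a, the F/- pair lies with the mutants for Ccnb1 and Cdc27 and above F/+; ZP3-cre for Mapk3, and mutant 4 stands alone at 593 RPKM for Ccnb2.

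Of the kinases that hold CDK1 inactive, Wee1 stood highest against its controls. Wee1, the WEE kinase of somatic cells, was read at 14.9, 9.58, 9.04 and 10.3 RPKM in mutants 1 to 4, against 6.20, 7.30, 6.09 and 5.85 RPKM in F/+; ZP3-cre and 8.20 and 4.53 RPKM in F/-. Every mutant library was above every control, with mutant 1 the highest and mutant 3 within 1 RPKM of the highest control. The mean was 10.96 ± 2.69 RPKM in mutants and 6.36 ± 1.26 RPKM in controls (SD, n = 4 and 6), a ratio of 1.72. The change was 0.73 on the log2 scale (95% interval 0.29 to 1.18), with an adjusted p of 0.055 in limma, which just missed the threshold. Over 21 alternative settings its adjusted p ran from 0.0132 to 0.160, all in the same direction, and it passed in 3 of them. Without mutant 1 the change was 0.58 with an adjusted p of 0.160, and without F/- replicate 1 it was 0.81 with an adjusted p of 0.0384. Wee1 lies at chr7:110122046-110143286 on the plus strand of GRCm38, and no other annotated exon overlaps it.

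Wee2, also called WEE1B, is the oocyte's own WEE kinase and the most abundant gene of its role. Its level was 195, 170, 178 and 151 RPKM in mutants, against 184, 192, 191 and 200 RPKM in F/+; ZP3-cre and 177 and 196 RPKM in F/-. Mutant 4 was the lowest of all libraries and the groups overlapped, with a change of -0.13 and an adjusted p of 0.430 (limma). Wee2 exceeded Wee1 per length in all 10 libraries, by 13.1 to 19.7 times in mutants and 21.6 to 43.2 times in controls, and these ranges did not overlap. These ratios rest on the same values as the change of Wee1. Pkmyt1, the membrane-bound MYT1 kinase, averaged 13.5 ± 7.07 RPKM in mutants and 12.0 ± 2.55 RPKM in controls (SD, n = 4 and 6; change 0.01). Its mutant values were the most uneven of the role, at 14.5, 21.8, 13.1 and 4.61 RPKM. Paqr4 overlaps its exons on the opposite strand and was at 8.06 RPKM in mutant 4, within the 7.28 to 9.72 RPKM of the other mutants.

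Among the phosphatases, Cdc14a was lower in mutants and the 3 CDC25 genes had changes of 0.15 or less in size. Cdc14a encodes a proline-directed phosphatase that removes phosphates placed by CDKs. It was at 1.35, 1.40, 1.28 and 0.89 RPKM in mutants, against 2.54, 3.35, 2.18 and 2.23 RPKM in F/+; ZP3-cre and 1.61 and 2.52 RPKM in F/-. Every mutant was below every control, and the first F/- library was the nearest. The mean was 1.23 ± 0.231 RPKM in mutants and 2.41 ± 0.572 RPKM in controls (SD, n = 4 and 6), a ratio of 0.511. The change was -0.74 (95% interval -1.29 to -0.18), with an adjusted p of 0.129 in limma. Over 20 alternatives the adjusted p ran from 0.0387 to 0.262, with the same direction in all and the threshold passed in 2. Cdc14a has the lowest level of the tested set, lies at chr3:116272553-116424032 on the minus strand of GRCm38, and overlaps the annotated Gm29151, which has no row in the table. Its paralogue Cdc14b, whose product acts through FZR1 to hold mouse oocytes in prophase, was at 2.25 ± 0.419 RPKM in mutants and 2.47 ± 0.450 RPKM in controls (SD, n = 4 and 6), a change of -0.11. Cdc14b exceeded Cdc14a by 1.61 to 2.08 times in mutants and was 0.75 to 1.41 times its level in controls. These ratios rest on the same values as the change of Cdc14a, and both genes are low.

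Cdc25a was the most abundant CDC25 gene, ahead of Cdc25b in all 10 libraries. It was at 24.2, 23.4, 23.9 and 20.1 RPKM in mutants, against 19.3, 22.2, 21.8 and 19.9 RPKM in F/+; ZP3-cre and 21.5 and 18.8 RPKM in F/-. The highest 3 values of the 10 were mutants, yet mutant 4 fell among the controls, and the change of 0.15 was not called. Cdc25b, the CDC25 that female mice need for meiosis to resume, averaged 10.04 ± 2.68 RPKM in mutants and 9.84 ± 2.69 RPKM in controls (SD, n = 4 and 6; change 0.02). Cdc25c, a CDC25 that acts with the others at entry into mitosis, averaged 4.83 ± 2.21 RPKM in mutants and 4.24 ± 1.01 RPKM in controls (SD, n = 4 and 6; change 0.10). Its 4 mutant values ran from 2.60 to 7.58 RPKM, a wider span than the 3.39 to 5.85 RPKM of the 6 controls.

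The MOS-MAPK module, in which MOS kinase activates MEK1 (Map2k1) and through it ERK1 (Mapk3) to hold the egg at metaphase II, had 3 positive changes against all controls and none called. Mos was read at 87.1, 119, 101 and 149 RPKM in mutants, against 99.9, 99.1, 107 and 87.3 RPKM in F/+; ZP3-cre and 77.1 and 94.2 RPKM in F/-. Mutants 2 and 4 were above all controls and the other 2 within their span, with a change of 0.26 and an adjusted p of 0.344 (limma). Map2k1 averaged 47.9 ± 4.74 RPKM in mutants and 43.5 ± 3.94 RPKM in controls (SD, n = 4 and 6; change 0.14). Its mutants stood above the F/- pair (39.5 and 37.9 RPKM) and overlapped F/+; ZP3-cre.

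For Mapk3 the difference between the control genotypes was larger than that of the mutants from either. It was at 62.2, 83.5, 70.2 and 57.1 RPKM in mutants, against 44.3, 47.7, 49.1 and 68.1 RPKM in F/+; ZP3-cre and 79.5 and 87.1 RPKM in F/-. The mutants overlapped both control groups, and the control groups did not overlap each other. The change was 0.39 against F/+; ZP3-cre with an adjusted p of 0.186 and had the opposite sign against F/-, at -0.30 with an adjusted p of 0.386, while F/+; ZP3-cre against F/- differed by -0.69 with an adjusted p of 0.143 (limma). Mapk3 was described in full after its values were seen.

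Plk1, Aurka and Bora had 3 negative changes, all small. PLK1 kinase activates CDC25 and inhibits WEE1 and MYT1, Aurora A activates PLK1 with the help of BORA, and all act on the spindle or its poles. Plk1 was at 73.4, 63.9, 71.3 and 71.2 RPKM in mutants, against 72.0, 77.0, 65.0 and 70.3 RPKM in F/+; ZP3-cre and 76.0 and 83.1 RPKM in F/-. The mutants lay within F/+; ZP3-cre but for mutant 2, and below both F/- libraries (change against all controls -0.08). Aurka averaged 67.2 ± 9.92 RPKM in mutants and 68.0 ± 11.1 RPKM in controls (SD, n = 4 and 6; change -0.02). Bora averaged 19.8 ± 2.88 RPKM in mutants and 23.0 ± 1.51 RPKM in controls (SD, n = 4 and 6; change -0.22, adjusted p 0.373 in limma), with mutant 1 at 24.0 RPKM among the controls and mutants 2 to 4 at 17.5 to 19.2 RPKM, below all of them.

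In the Greatwall module, the kinase MASTL phosphorylates ENSA and ARPP19, which then inhibit PP2A with a B55 subunit and keep CDK1 sites phosphorylated. Mastl was at 48.5, 37.7, 52.0 and 45.9 RPKM in mutants, against 46.9, 46.9, 45.3 and 49.2 RPKM in F/+; ZP3-cre and 38.5 and 56.0 RPKM in F/-. The F/- pair enclosed nearly all other values, and the change was -0.04. Its sign turned under some settings. Arpp19, the more abundant of the 2 inhibitors in all 10 libraries, averaged 38.4 ± 5.14 RPKM in mutants and 32.4 ± 6.15 RPKM in controls (SD, n = 4 and 6; change 0.25, adjusted p 0.412 in limma).

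Ensa was uneven between libraries and between its 2 transcript rows. Its higher row was at 2.44, 3.18, 3.82 and 8.36 RPKM in mutants, against 6.14, 6.37, 7.24 and 4.29 RPKM in F/+; ZP3-cre and 5.36 and 9.65 RPKM in F/-. Mutants 1 to 3 were below all controls and mutant 4 was above 5 of the 6, and the change of -0.60 had an adjusted p of 0.305 (limma). The other row was at 1.83, 4.93, 2.49 and 15.8 RPKM in mutants, against 4.23 to 5.66 RPKM in F/+; ZP3-cre and 6.48 and 3.96 RPKM in F/-. The ratio of the rows ran from 0.41 to 1.89 over the libraries. In the other 6 genes of the set with several rows above the minimum level (Arpp19, Aurka, Cdc14a, Cdc14b, Cdc25b and Cdc27) the ratio stayed between 0.917 and 1.03. Ensa and Setdb1 are 267.8 kb apart on chromosome 3. It was described in full after its values were seen.

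Among the APC/C genes, 3 changes were positive and 3 negative, with none called. Cdc27, a core subunit that binds the activators, was at 68.3, 60.8, 55.3 and 64.0 RPKM in mutants, against 74.0, 78.3, 76.2 and 71.3 RPKM in F/+; ZP3-cre and 63.6 and 56.1 RPKM in F/-. All mutants were below all F/+; ZP3-cre libraries and overlapped the F/- pair, the same arrangement as for Ccnb1. The change was -0.27 against F/+; ZP3-cre with an adjusted p of 0.152, and -0.16 against all controls with an adjusted p of 0.467 (limma). Anapc2, the cullin subunit of the catalytic core, averaged 7.84 ± 1.60 RPKM in mutants and 8.05 ± 1.58 RPKM in controls (SD, n = 4 and 6; change -0.04).

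The activators Cdc20, which serves APC/C at anaphase, and Fzr1, which serves it in prophase arrest, had changes of 0.33 and 0.20. Cdc20 was at 23.7, 33.6, 14.7 and 16.1 RPKM in mutants, with mutants 1 and 2 above the 14.3 to 19.9 RPKM of all controls and the other 2 among them. Fzr1 averaged 23.8 ± 3.70 RPKM in mutants and 20.8 ± 4.51 RPKM in controls (SD, n = 4 and 6), and exceeded Cdc20 in 8 of 10 libraries. Elovl1, which overlaps Cdc20 on the opposite strand, was at 17.99 to 24.9 RPKM in mutants and 18.5 to 28.4 RPKM in controls.

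The inhibitors Fbxo5 (EMI1), which restrains APC/C in prophase, and Fbxo43 (EMI2), which holds the egg at metaphase II, had changes of -0.05 and 0.16. Fbxo5 averaged 25.3 ± 3.89 RPKM in mutants and 26.1 ± 3.76 RPKM in controls (SD, n = 4 and 6). Fbxo43 was at 36.7, 35.8, 34.5 and 45.3 RPKM in mutants, against 36.0, 36.2, 37.1 and 40.7 RPKM in F/+; ZP3-cre and 31.5 and 24.4 RPKM in F/-. The mutants overlapped F/+; ZP3-cre and were above both F/- libraries, with a change against F/- of 0.44 and an adjusted p of 0.129 (limma).

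Several of these genes stood differently against each control genotype, and the comparisons that follow share libraries, so they are given side by side. Against F/+; ZP3-cre, no gene of the 30 passed the adjusted threshold, while 4.89% of all tested genes did. In that comparison 5 of the 30 (Ccnb1, Wee1, Cdc14a, Cdc27 and Ccna2) had mutant libraries that did not overlap the 4 F/+; ZP3-cre libraries, against 17.3% of all tested genes, a share near that background. At an unadjusted p of 0.05 there were 3 higher (Wee1, Mapk3 and Ccna2) and 4 lower (Ccnb1, Cdc14a, Cdc27 and Ccnb3) of the 30, against 19.2% of all genes in either direction, again near the background. Against F/-, again none passed, while 4.84% of all genes did, and at an unadjusted p of 0.05 there were 3 of the 30 higher (Fbxo43, Wee1 and Map2k1) and 0 lower, a smaller share than the 21.5% of all genes in either direction.

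Between the controls, F/+; ZP3-cre against F/-, no gene of the 30 passed and 0.0706% of all genes did (8 genes). At an unadjusted p of 0.05 Mapk3 was lower in F/+; ZP3-cre (-0.69), and Ccnb1 (0.52), Fbxo43 (0.43) and Cdc27 (0.32) were higher, 4 of the 30 against 14.0% of all genes, a share near the background. The difference for Wee1 was 0.72 against F/+; ZP3-cre (adjusted p 0.098) and 0.77 against F/- (adjusted p 0.133), and for Cdc14a it was -0.83 against F/+; ZP3-cre (adjusted p 0.113) and -0.56 against F/- (adjusted p 0.367), so neither passed in either comparison. The F/- group holds 2 libraries, so separation from it, as for Fbxo43, Map2k1, Plk1 and Mapk3, is a weak criterion. The share of all tested genes separated from F/- was not counted. By the approximate read totals F/- replicate 1 was the shallowest of all and replicate 2 the deepest. Without replicate 1, mutants differed from the single F/- library left by 1.16 for Wee1, 0.76 for Arpp19 and 0.62 for Fbxo43. Without replicate 2 instead, the difference was 0.37 for Wee1, -0.05 for Arpp19, with its sign turned, and 0.26 for Fbxo43. The size of each difference thus depended on which F/- library was used.

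**Figure D4:**
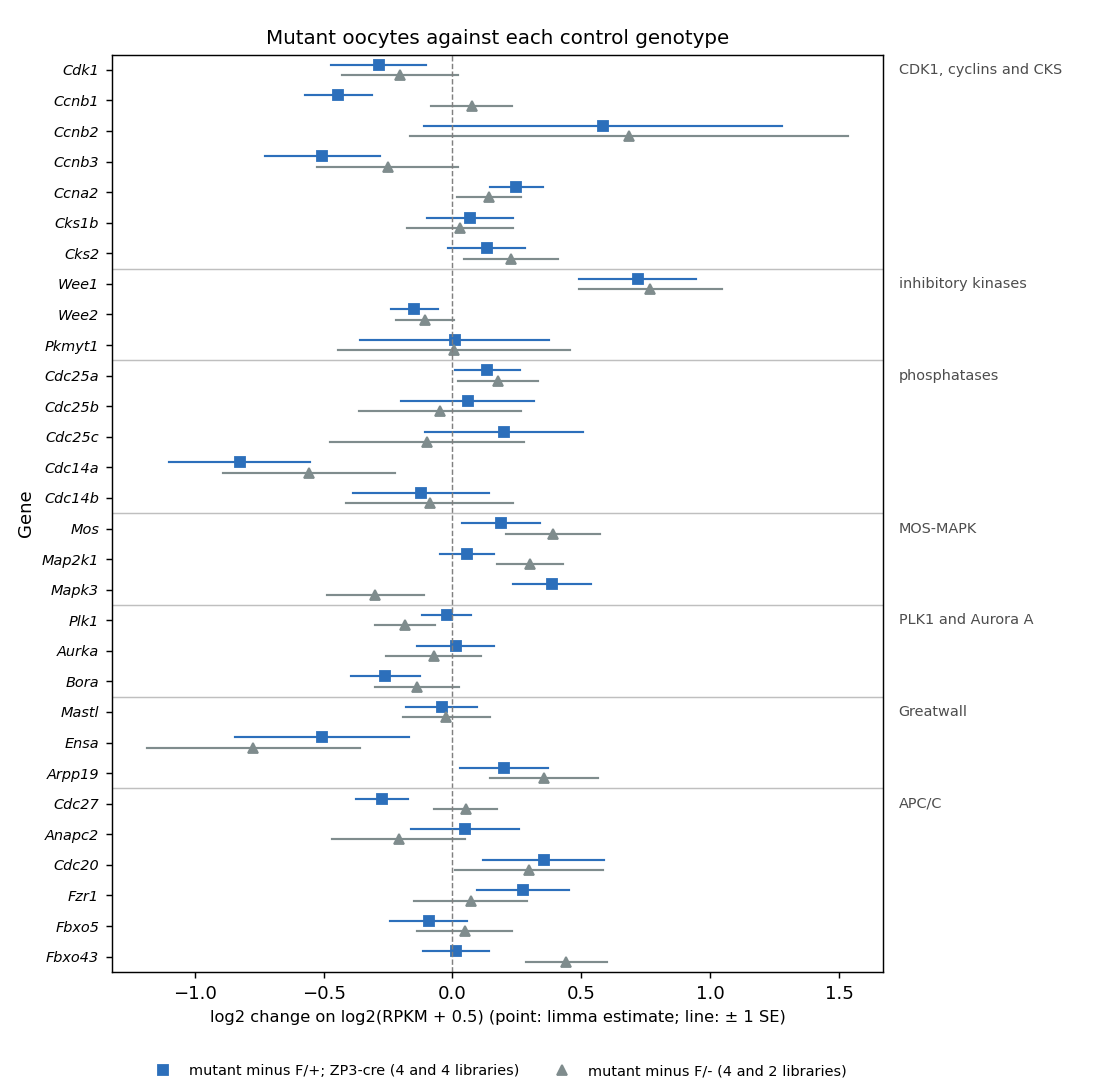
Change of each of the 30 tested genes in mutants (difference of log2(RPKM + 0.5), points, with lines of 1 SE to each side) against F/+; ZP3-cre and against F/-, from 1 model with 3 groups. Wee1 lies to the right of 0 against both (0.72 and 0.77) and Cdc14a to the left (-0.83 and -0.56), while Ccnb1 lies to the left against F/+; ZP3-cre (-0.44) and not against F/-.

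Beyond the 31 genes, 61 further genes of the pathway were taken in 5 lists, also chosen with earlier results of these data known. Of these, 53 were tested and 3 were called in mutants against all controls (limma), a share near the 5.33% of all genes. In the list of other CDK genes, 1 of 15 tested was higher and 1 lower, with a list median of -0.12 against 0.03 over all genes. Both belong to the CDK-activating kinase, the trimer of CDK7, cyclin H and MAT1 that phosphorylates CDK1 on its activating loop. Ccnh, cyclin H, was at 11.8, 14.1, 9.52 and 12.8 RPKM in mutants, against 4.67 to 6.38 RPKM in controls, and every mutant was above every control. Its change was 1.10 with an SE of 0.18 and an adjusted p of 0.0030, and it passed under all 21 alternatives (0.00167 to 0.0177). Mnat1, which encodes MAT1, the assembly subunit, was at 3.79, 1.14, 4.45 and 2.30 RPKM in mutants, against 4.97 to 7.35 RPKM in controls, and every mutant was below every control. Its change was -1.10 with an SE of 0.29 and an adjusted p of 0.0442, which passed in 8 of 21 alternatives (0.0245 to 0.104). Cdk7, the kinase of the trimer, was at 3.33 ± 0.639 RPKM in mutants and 2.25 ± 0.411 RPKM in controls (SD, n = 4 and 6), with a change of 0.48, an adjusted p of 0.298 and overlapping groups. It was added after the values of its partners were seen.

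The list of PP2A and PP1 genes, phosphatases that oppose CDK1, had 1 of 9 tested genes higher and 0 lower, with a median of 0.18. Ppp2r2a, the B55-alpha regulatory subunit of PP2A, on which ENSA and ARPP19 act, was at 16.7, 24.2, 19.8 and 27.0 RPKM in mutants, against 11.8 to 14.8 RPKM in controls. Every mutant was above every control, with a change of 0.73, an SE of 0.16 and an adjusted p of 0.0154 (limma). The other lists held no called gene. Of 15 further APC/C genes (median 0.06), Ube2c, its ubiquitin-conjugating enzyme, averaged 175 ± 12.5 RPKM in mutants and 137 ± 25.6 RPKM in controls (SD, n = 4 and 6, as for the next genes), with a change of 0.37 and an adjusted p of 0.116. Of 6 tested 14-3-3 genes (median -0.01), which encode proteins that hold CDC25 in the cytoplasm, Ywhaz averaged 120 ± 6.93 RPKM in mutants and 148 ± 7.92 RPKM in controls, with a change of -0.30 and an adjusted p of 0.0533. Of 8 tested MAPK genes (median 0.08), Dusp1, a phosphatase of MAP kinases, averaged 57.2 ± 11.2 RPKM in mutants and 41.2 ± 5.33 RPKM in controls, with a change of 0.46 and an adjusted p of 0.0766.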

How the data were processed

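RNA of 10 pools of GV oocytes was amplified from RNA extracted with an RNeasy Micro Kit (NuGen Ovation, single-primer isothermal amplification) and made into libraries with a TruSeq DNA kit, per the labels' protocols. That kit does not mark strand, and amplifying such small inputs widens the spread among libraries. The values deposited by the authors are RPKM of RefSeq transcripts (reads scaled for length and depth). Per the submitters' processing notes, STAR, bcl2fastq 1.8.3 and mm10 were used; the sources used here do not give the counting step.

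Of several rows of a symbol, the one with the highest mean stood for the gene. Tests used log2(RPKM + 0.5) on the 11338 genes averaging 0.5 RPKM or more, with limma 3.58.1 in R 4.3.3 (empirical Bayes with a trend), and Benjamini-Hochberg adjustment over all of them at 0.05. All gene p-values in the text are from limma. On this scale the changes of low genes are understated. Mutants were set against all 6 controls, since the design names both control genotypes together, and a model with 3 groups gave each separately. The model was also run on simulated data with independent normal noise. These held no outlying library and the same spread in every group, so that run does not vouch for calls in these data. In the data the median SD of all genes on the log2 scale was 0.388 in mutants, 0.191 in F/+; ZP3-cre and 0.385 in F/-. The main models nevertheless used 1 spread per gene, shared by all groups. No totals are in the table; where transcript lengths were known, low values gave approximate read totals, with 66.5% to 70.0% within 0.1 of a whole read. In the shallowest library 10 reads on a 2 kb transcript are 0.109 RPKM.

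Positions come from GENCODE M21 on GRCm38, and near copies from BLAST 2.17.0 (at least 98% identity over 200 bases). Full values by library were to be given for genes with an unadjusted p under 0.05 or no overlap between groups in mutant against all controls, and for the highest of each role; those of Ccnb1, Mapk3, Ensa and Fbxo43 were added after their values were seen. The genes and lists were chosen with earlier results of these data known. Alternatives covered pseudocount, scaling, filter, spread model, library weights, transcript rows, control choice and each library left out. Replicate numbers were not taken as pairs in the main model. Correlations of same-numbered libraries' deviations ran from -0.0461 to 0.0308, which cannot exclude a pairing.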

Additional observations from a re-analysis of the deposited data

Results flagged for a closer look

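Libraries that stood apart within their own group were sought by Dixon's test in 60 groups of 4 libraries, the mutants and the F/+; ZP3-cre controls of each tested gene. About 1 group in 20 passes by chance, and 5 did. Ccnb2 was at 593 RPKM in mutant 4, against 43.2 RPKM in the nearest mutant. Ccnb1 was at 38.8 RPKM in mutant 1, with the nearest mutant at 30.3 RPKM. In F/+; ZP3-cre, Ccnb1 was at 45.5 RPKM in replicate 2, with the nearest at 42.9 RPKM. In replicate 3 of F/+; ZP3-cre, Cdc25c was at 5.10 RPKM with the nearest at 3.58 RPKM, and Aurka was at 86.8 RPKM with the nearest at 62.7 RPKM.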

How the results depend on the processing

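Of the 30 tested genes, 20 kept their direction against all controls in every alternative, and 4 were called in at least 1. With library weights Wee1, Cdc14a, Ccnb1 and Ccnb3 were called (4 genes), beside 807 higher and 581 lower of the 11338 tested genes. Without a trend in the spread Cdc14a was called (1), beside 301 higher and 238 lower. With the F/- libraries set aside Ccnb1 and Wee1 were called (2), beside 514 higher and 395 lower. In each of these settings the share of the 30 called was near that of all tested genes. Median centring called 1 gene, Ccnb1, against F/+; ZP3-cre. It also turned the split of calls to 303 higher and 339 lower against all controls, beside 352 and 252, and to 266 and 344 against F/+; ZP3-cre, beside 313 and 241. With no filter there were 150 lower against all controls, 227 higher and 118 lower against F/-, and 14 higher between the controls. A pseudocount of 0.1 gave 17 higher and 8 lower between the controls. With a replicate block there were 140 lower against all controls, 139 lower against F/+; ZP3-cre, 163 higher and 60 lower against F/-, and 1 higher and 0 lower between the controls; Ppp2r2a then had an adjusted p of 0.0524.

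Leaving out 1 library at a time, members called ranged from 0 to 1 against all controls, 0 to 2 against F/+; ZP3-cre, 0 to 3 against F/- and 0 to 1 between the controls. Setdb1 ranged from -3.38 to -2.94. Genes higher and lower ranged from 238 to 439 and 121 to 355 against all controls, 160 to 512 and 66 to 393 against F/+; ZP3-cre, 198 to 991 and 79 to 476 against F/-, and 0 to 546 and 0 to 294 between the controls. The upper ends of the last pair came without F/- replicate 1, where the lone F/- library is assumed to vary like the other groups. Without it Wee1 was called against all controls. With either F/- library left out, Ccnb1 and Wee1 were called against F/+; ZP3-cre, though their changes stayed at -0.44 and 0.72. Ccnb2 ranged from -0.35 without mutant 4 to 0.99 without mutant 3. Mastl turned to 0.0279 with library weights, and ranged from -0.10 without mutant 3 to 0.0554 without mutant 2, with 0.0147 without F/- replicate 2. The cause was not tested. Cdc14a, at 0.89 to 3.35 RPKM, has the lowest mean level of the tested genes of the set.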
